A study of Mus musculus with 15 samples.

Results

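The genes described here encode subunits of the BAF family of chromatin remodellers and of the INO80, SRCAP and TIP60 complexes, in which actin or an actin-related protein is a structural subunit. The 35 genes were chosen as named subunits and found by symbol among the 46603 gene IDs of each count file. Of these, 26 were counted with the BAF family and 9 with INO80, SRCAP and TIP60. The actin-related gene Actl6a was counted with the BAF family, although it also belongs to INO80 and TIP60. A level filter left 33 of the 35 among the 15296 genes tested. The study sequenced RNA from mouse embryonic fibroblasts (MEFs, connective tissue cells cultured here from 10.5-day BALB/c embryos) in 15 libraries and asks how genotypes of the beta-actin gene Actb differ in transcriptome after chemical reprogramming to osteoblasts. The groups are Actb knockout (KO, -/-) and wild type (WT, +/+) cells at day 4, and KO, heterozygous (HET, +/-) and WT cells at day 14, with 3 libraries each. All groups shared the same osteogenic medium with dexamethasone and forskolin from day 0, so no group without the medium or the 2 compounds enters any comparison. The cells of the 3 genotypes came from 1 outside laboratory, and the labels tie no library to an embryo, a culture or a batch. P-values therefore measure the spread between these libraries, which may be technical, and genotype cannot be told apart from a difference between cell isolates.

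BAF complexes use the energy of ATP to slide or eject nucleosomes. Each complex holds 1 of the alternative ATPases BRG1 (Smarca4) or BRM (Smarca2), a core of SMARC subunits, and beta-actin bound together with the actin-related protein BAF53A (Actl6a) on a helix of the ATPase. Canonical BAF carries an ARID1 and a DPF subunit, PBAF carries ARID2, PBRM1, BRD7 and PHF10, and the non-canonical form carries BRD9. INO80, SRCAP and TIP60 also hold actin and actin-related proteins, together with the ring-forming ATPases RUVBL1 and RUVBL2. SRCAP and TIP60 place the histone variant H2A.Z in chromatin. Exchange of paralogs within BAF accompanies development: the subunits encoded by Dpf1, Dpf3, Actl6b and Ss18l1 are typical of neurons, and that of Smarcd3 of heart and muscle.

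Total counts per library ran from 19878449 to 47486736. Levels are given as CPM, counts scaled to a common library size after TMM scaling. Actb, the targeted gene, had 129.9 to 138.6 CPM in the KO libraries and 1164 to 1193 CPM in the WT libraries of day 4. The day 14 libraries had 43.0 to 46.5 CPM of Actb in KO, 1437 to 1642 CPM in HET and 2947 to 3067 CPM in WT. The other cytoplasmic actin gene, Actg1, had means of 2319 CPM in KO against 441 CPM in WT at day 4, and of 2494, 1326 and 812 CPM in KO, HET and WT at day 14. The share of counts from mitochondrial genes was 0.836% to 0.845% in KO against 0.415% to 0.421% in WT at day 4, and 1.08% to 1.12% in KO, 0.729% to 0.851% in HET and 0.484% to 0.542% in WT at day 14. HET replicate 2 stood apart from the other HET libraries: ribosomal protein genes took 4.73% of its counts and 3.29% and 3.33% of theirs. The WT libraries of day 14 were uneven too, with ribosomal protein shares of 3.64%, 4.09% and 4.54% in replicates 1 to 3. In KO at day 14 this share was 2.35% to 2.37%. The SD of the 33 genes had a median of 3.79% of the mean in KO, 11.7% in HET and 5.68% in WT at day 14. Of 8 osteoblast markers, 4 were over 1 CPM in every group, and they went different ways. At day 4 Runx2 and Alpl were lower in KO than in WT, and Spp1 and Col1a1 were higher. Alpl had means of 3.39 CPM in KO and 22.0 CPM in WT at day 4. Its means at day 14 were 32.0, 8.29 and 127.7 CPM in KO, HET and WT. Col1a1 had means of 769.7 CPM in KO and 107.1 CPM in WT at day 4. The bone sialoprotein gene Ibsp had 3 counts in WT at day 14 and none in the other groups. Sp7, Bglap and Dmp1 had means under 1 CPM in every group, WT at day 14 included. The 6 fibroblast markers differed in direction too. At day 4 Dcn had means of 22.0 CPM in KO and 526.7 CPM in WT, while Vim had 622.2 and 396.1 CPM. Col1a2 had means of 0.117, 489.5 and 0.310 CPM in KO, HET and WT at day 14. Thy1 had means under 1 CPM in every group. The part of the mitochondrial share and of the cell state in the results below was not tested, and in bulk RNA fewer cells of a type and less RNA per cell cannot be told apart.

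Smarca2 was higher in KO than in WT cells at both days, with the highest log2 fold change among the genes higher in KO at each day, while Smarca4 was slightly lower. At day 4 Smarca2 stood at 41.0, 38.5 and 37.5 CPM in the KO libraries and at 6.61, 7.79 and 7.84 CPM in the WT libraries. At day 14 it stood at 73.1, 70.0 and 74.8 CPM in KO, at 55.3, 55.9 and 58.1 CPM in HET and at 32.6, 30.7 and 31.5 CPM in WT. The 3 genotypes of day 14 did not overlap, and HET lay between KO and WT. In KO against WT at day 4 the log2 fold change was 2.40 ± 0.07 (SE; 5.29-fold; adjusted p = 1.11e-13, edgeR quasi-likelihood test). At day 14 it was 1.20 ± 0.07 (2.30-fold; adjusted p = 3.7e-10) in KO against WT, 0.84 ± 0.07 (adjusted p = 2.71e-08) in HET against WT and 0.36 ± 0.06 (adjusted p = 0.000153) in KO against HET. The call of KO against HET was lost when each library was corrected for exon length and GC content, where the value was 0.18. Adipocyte markers, of which 1 of 5 (Fabp4) was over 1 CPM in any group, had the same order of groups at each day, with summed levels of 76.2 to 80.5 CPM in KO and 15.1 to 17.1 CPM in WT at day 4, and of 412 to 430.1 CPM in KO, 220.4 to 344 CPM in HET and 11.5 to 16.2 CPM in WT at day 14. The defining markers Cidec and Lep had 1 count each in WT at day 14 and none in the other groups. The part of these cells was not tested.

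Smarca4 was abundant throughout, with 220.1, 216.5 and 214.5 CPM in KO and 244, 249.5 and 243 CPM in WT at day 4. The day 14 levels were 258, 266 and 270.6 CPM in KO, 332, 327 and 316 CPM in HET and 295, 293 and 300.6 CPM in WT. KO libraries lay below WT libraries at both days, and HET libraries lay above both. The log2 fold change of KO against WT was -0.18 ± 0.04 at day 4 (adjusted p = 0.00111) and -0.16 ± 0.04 at day 14 (adjusted p = 0.00316). The value of day 14 rests on the processing: it was 0.02 and did not pass with the length and GC correction.

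The balance of the 2 ATPase genes differed between KO and WT at both days. Per kb of exon, Smarca2 made up 7.54% of the pair in KO and 1.35% in WT at day 4, and 11.1% in KO, 7.31% in HET and 4.61% in WT at day 14. Smarca4 was the more abundant gene of the pair in all 15 libraries. The log2 count ratio of Smarca4 over Smarca2 was 2.48 ± 0.05 in KO and 5.06 ± 0.13 in WT at day 4 (SD, n = 3), and 1.87 ± 0.05 in KO, 2.53 ± 0.07 in HET and 3.23 ± 0.04 in WT at day 14. Over both days the ratio was lower in KO than in WT (exact permutation test within days, two-sided, p = 0.005, the smallest it can give; adjusted over 13 ratios 0.013).

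**Figure D1:**
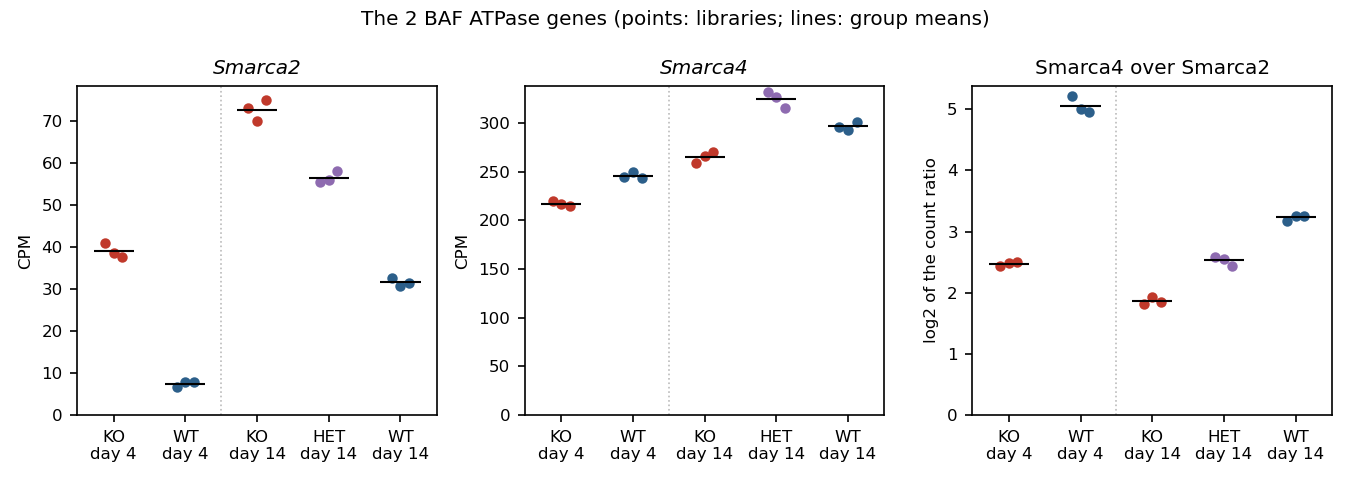
CPM of Smarca2 (left) and Smarca4 (centre) and the log2 ratio of their counts (right) in each library, by group, with group means as lines. The KO libraries lie above WT for Smarca2 and below WT for Smarca4 and for the ratio at both days, and HET lies between them for Smarca2 and for the ratio.

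Smarca2 (ENSMUSG00000024921) spans chr19:26605050-26778322 and Smarca4 (ENSMUSG00000032187) chr9:21616169-21704230, both on the plus strand of GRCm38. Their promoter windows are shown because the balance of this pair of paralogs differed between KO and WT. Each window is 300 bases from RefSeq on GRCm38.p6, from 250 before to 50 after a start that RefSeq gives, which for Smarca2 lies inside the span above, at chr19:26604910-26605209 and chr9:21615919-21616218 on the plus strand, 5′ to 3′, with GC boxes (GGGCGG, or CCGCCC for the other strand) in capitals.
Smarca2: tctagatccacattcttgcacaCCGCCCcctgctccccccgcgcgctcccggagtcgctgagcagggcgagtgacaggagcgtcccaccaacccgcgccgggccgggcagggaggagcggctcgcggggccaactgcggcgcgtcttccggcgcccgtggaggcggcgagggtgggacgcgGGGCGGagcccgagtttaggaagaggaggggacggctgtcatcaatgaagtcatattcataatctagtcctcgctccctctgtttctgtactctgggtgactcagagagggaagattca
Smarca4: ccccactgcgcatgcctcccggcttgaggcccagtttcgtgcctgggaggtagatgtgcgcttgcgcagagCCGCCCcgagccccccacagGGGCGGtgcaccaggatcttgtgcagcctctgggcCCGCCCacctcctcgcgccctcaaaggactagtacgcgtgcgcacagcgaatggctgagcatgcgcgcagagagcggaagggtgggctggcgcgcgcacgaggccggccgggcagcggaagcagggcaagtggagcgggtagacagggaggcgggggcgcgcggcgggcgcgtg

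Of the 35 genes, 29 had 33 such windows in the RefSeq table. Smarce1, Arid2, Ss18, Bcl7a, Actr5 and Actr8 were not matched. The member windows held a median of 31 CpG (range 4 to 62), against 7 over all 32851 windows. A GC box on either strand was in 29 of the 33 windows and in 35.7% of all windows. The partial CRE site TGACG, a motif of the cAMP-responsive factor CREB, was in 13 member windows and in 20.8% of all, and the full site TGACGTCA was in 0 member windows and in 1.79% of all. A CArG box, the motif of the actin-responsive factor SRF, was in 0 member windows and in 1.63% of all, and TATAAA was in 2 and in 13.6% of all. These matches describe letters in the windows and no binding.

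Among the 33 tested genes, KO and WT differed for 24 at day 4 and 26 at day 14. At day 4, 24 of 33 genes passed an adjusted p of 0.05, with 9 higher and 15 lower in KO (35.7% and 33.8% of all genes). Of all genes tested 69.5% passed at day 4, so the share among the remodeller genes was near the background. At day 14, 26 of 33 passed, with 12 higher and 14 lower in KO, against 63.1% of all genes (30.9% higher and 32.2% lower). By complex, 8 of 24 tested BAF family genes were higher and 10 lower at day 4, and 10 higher and 9 lower at day 14. The 9 genes counted with INO80, SRCAP and TIP60 leave out Actl6a. Of them, 1 was higher and 5 lower at day 4, and 2 higher and 5 lower at day 14. With a fold of at least 1.5 as well, 9 passed at day 4 and 8 at day 14, against 45.2% and 35.7% of all genes. The median log2 fold change of the 33 genes was -0.16 at day 4 and -0.10 at day 14, against 0.03 and -0.02 over all genes. At day 4 the KO and WT libraries did not overlap for 31 genes (79.7% of all genes tested), and at day 14 for 29 genes (69.1%).

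The comparisons of the 2 days share no library. They called 10 of 33 genes in the same direction (30.3%, against 24.8% of all genes) and 9 in opposite directions (27.3%, against 21.7%). Higher in KO at both days were Smarca2 and Smarcc2. Lower at both days were Smarca4, Phf10, Dpf2, Bcl7b, Bcl7c, Actr8, Ruvbl1 and Ruvbl2. Lower at day 4 and higher at day 14 were Smarcc1, Smarce1, Arid1b, Arid2 and Ss18. Higher at day 4 and lower at day 14 were Smarcd3, Dpf1, Brd9 and Kat5. In the test of the difference itself, the interaction of genotype and day, 28 of 33 genes passed (14 with a higher and 14 with a lower KO against WT value at day 14 than at day 4), against 64.7% of all genes (30.7% higher and 34.0% lower). Of these, 16 differed by 1.5-fold or more, against 49.5% of all genes.

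**Figure D2:**
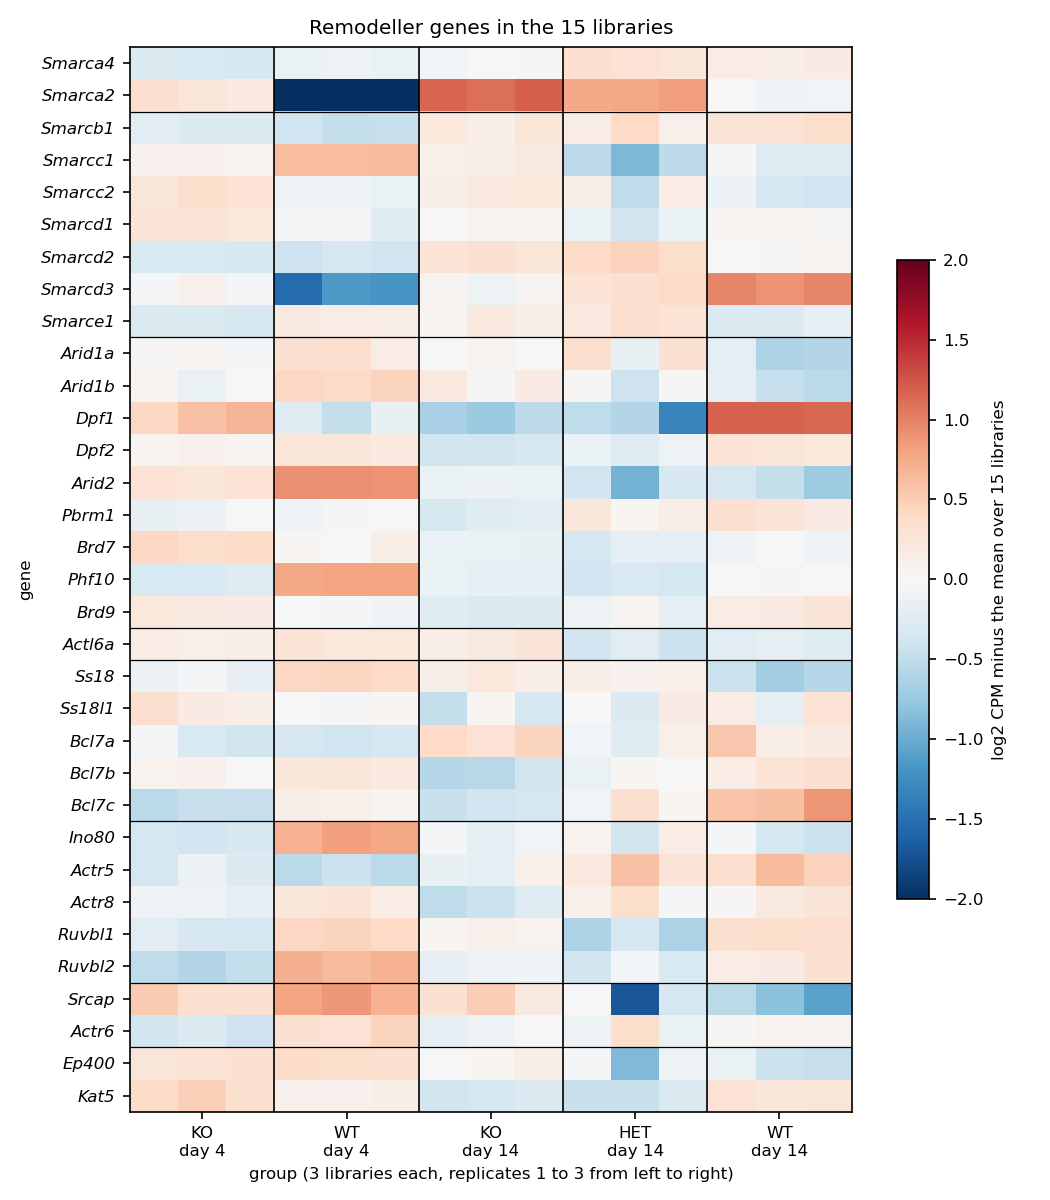
Level of the 33 tested genes in each library as log2 CPM minus the gene's mean over the 15 libraries (colour, red high and blue low, with the scale ending at -2 and 2), with the libraries in columns by group and the genes in rows by role. Smarca2 is lowest in WT at day 4, Dpf1 and Smarcd3 are high in WT at day 14, and HET replicate 2 is low for Srcap and Ep400.

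**Figure D3:**
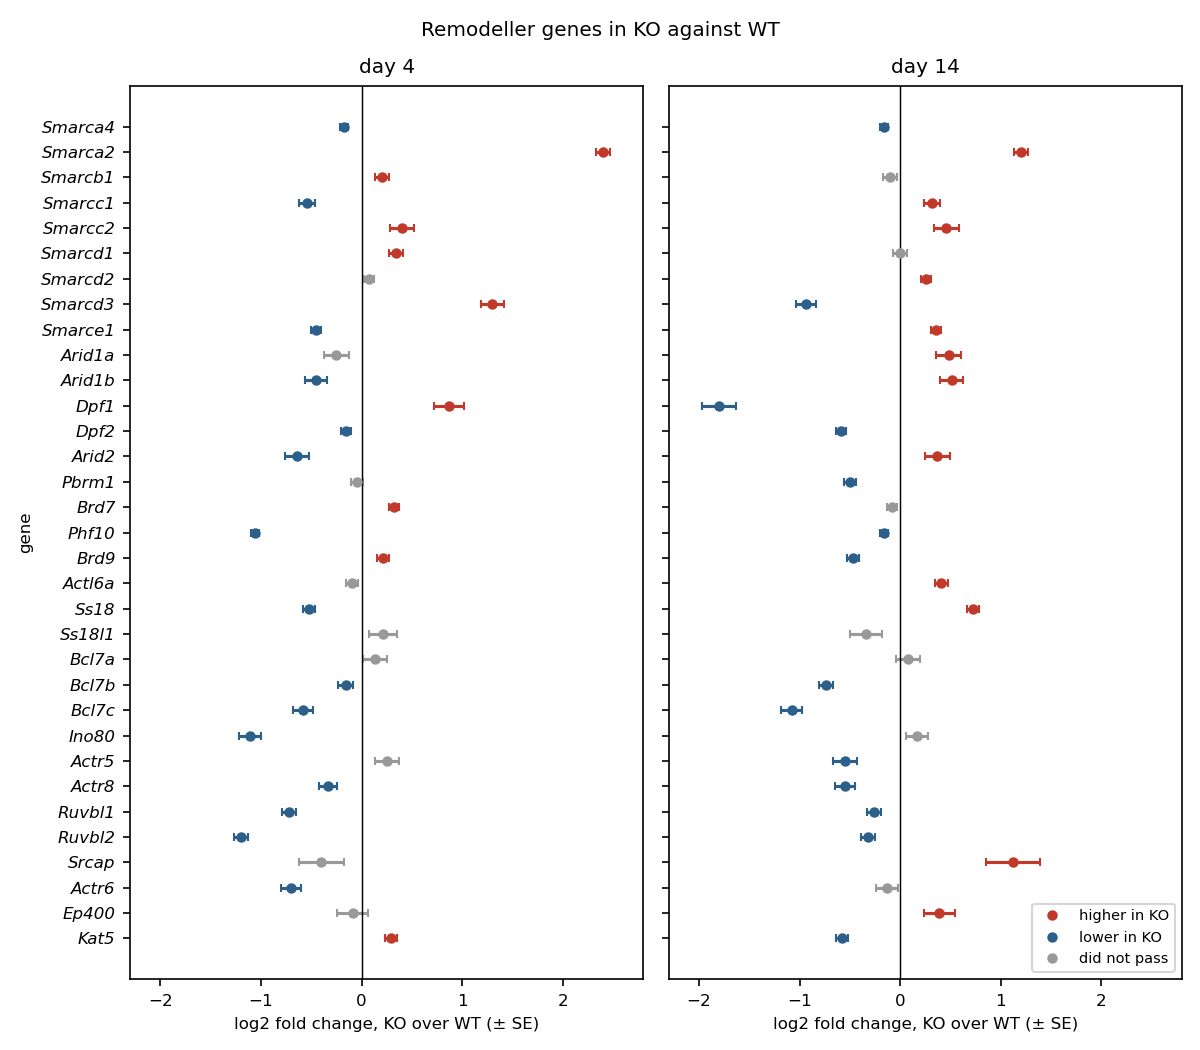
Log2 fold change of KO over WT with its SE for the 33 tested genes at day 4 (left) and day 14 (right), coloured by whether the gene passed an adjusted p of 0.05. Smarcd3 and Dpf1 lie right of 0 at day 4 and left of it at day 14, and Ss18, Smarcc1 and Smarce1 lie left of it at day 4 and right of it at day 14.

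At day 14 the directions among long members were not those among short ones. Split at the median exon length of 6501 bases, 17 genes were long and 16 short. At day 14, 9 long genes were higher and 5 lower in KO than in WT, while 3 short genes were higher and 9 lower. Spearman's rho of the log2 fold change with exon length was 0.50 over the 33 genes and 0.18 over 15240 genes at day 14, and -0.01 and -0.10 at day 4. In HET against WT, which shares the WT libraries of day 14, rho was 0.49 over the 33 genes and 0.09 over 15240 genes. These are descriptions over genes that share the same libraries. The WT libraries of day 14 differed among themselves in ribosomal protein share, and the part of this was not tested. Each library was also corrected for exon length and GC content together, and values with this correction are given for several genes. As both enter at once, the correction cannot tell the part of length from that of GC content.

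In the core, the scaffold gene Smarcc1 (BAF155) changed sides between the days while its paralog Smarcc2 (BAF170) stayed higher in KO. Smarcc1 had 214, 215 and 209.6 CPM in KO and 309, 308.5 and 314 CPM in WT at day 4. On day 14 the values were 217, 220.7 and 229 CPM in KO, 140.2, 108 and 140.4 CPM in HET and 196, 169 and 169 CPM in WT. KO libraries were all lower than WT at day 4 and all higher at day 14, and HET libraries were the lowest. KO against WT had a log2 fold change of -0.54 ± 0.08 at day 4 (adjusted p = 2.07e-05) and 0.32 ± 0.08 at day 14 (adjusted p = 0.00309), with an interaction of 0.87 ± 0.12 (adjusted p = 7.59e-06).

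Smarcc2 had 229.9, 248 and 239 CPM in KO and 183, 184 and 177.5 CPM in WT at day 4. Levels at day 14 were 212, 224 and 226 CPM in KO, 215, 137.5 and 216 CPM in HET and 180.2, 154 and 149 CPM in WT. KO lay above WT at both days, while HET replicate 2 lay below the other HET libraries and all WT libraries. The log2 fold change was 0.40 ± 0.12 (adjusted p = 0.00938) at day 4 and 0.46 ± 0.12 (adjusted p = 0.00465) at day 14. In HET against WT it was 0.24 ± 0.12 and did not pass, and without HET replicate 2 it was 0.42 and passed. The HET value also passed with no filter beyond 1 count (0.26) and with the length and GC correction (0.35).

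The SMARCD genes encode alternative BAF60 subunits that contact transcription factors. Smarcd3 (BAF60C) was the lowest of the family, with 7.06, 7.61 and 7.01 CPM in KO and 2.47, 3.22 and 3.16 CPM in WT at day 4. In day 14 libraries it had 7.40, 6.68 and 7.43 CPM in KO, 8.62, 8.94 and 9.33 CPM in HET and 14.0, 13.3 and 14.1 CPM in WT. The KO libraries of both days overlapped, while the WT libraries lay below KO at day 4 and above it at day 14. The log2 fold change of KO against WT was 1.30 ± 0.11 at day 4 (adjusted p = 3.25e-08) and -0.94 ± 0.10 at day 14 (adjusted p = 1.14e-06). HET against WT was at -0.62 ± 0.10 (adjusted p = 8.75e-05), and at -0.23 and no longer past the threshold with the length and GC correction.

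Of the exon bases of Smarcd3, 48.2% also lie in exons of Chpf2 on the opposite strand, whose log2 fold change was 0.36 at day 4 and -0.04 at day 14. The kit is unstranded, so reads of the shared bases cannot be told apart. Striated muscle markers summed to 5.19 to 6.05 CPM in KO and 0.548 to 0.663 CPM in WT at day 4, and to 16.8 to 18.6 CPM in KO, 15.5 to 18.9 CPM in HET and 13.6 to 16.8 CPM in WT at day 14. No more than 1 of these 6 markers, Des, was over 1 CPM in a group. The defining factor gene Myod1 had 1 count in WT at day 14 and none in the other groups.

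Smarcd1 (BAF60A) was higher in KO at day 4, with 50.1 to 52.2 CPM in KO and 36.6 to 42.6 CPM in WT (log2 0.34 ± 0.07; adjusted p = 0.000406). The values of day 14 were 43.8 to 45.0 CPM in KO, 33.8 to 39.7 CPM in HET and 43.9 to 44.9 CPM in WT. KO and WT overlapped at day 14, with a log2 fold change of 0.00 ± 0.07 that became 0.36 and passed under the length and GC correction. Smarcd2 (BAF60B) did not pass at day 4 (0.07 ± 0.05). At day 14 it had 95.4 to 99.9 CPM in KO, 103 to 111 CPM in HET and 80.2 to 83.2 CPM in WT, a log2 fold change of 0.26 ± 0.05 in KO (adjusted p = 0.000197) and of 0.39 ± 0.05 in HET (adjusted p = 3.92e-06).

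Smarcb1 encodes the nucleosome-gripping subunit SNF5. It had 87.9 to 92.0 CPM in KO and 76.4 to 80.5 CPM in WT at day 4 (log2 0.20 ± 0.07; adjusted p = 0.0191), a call that was lost without KO replicate 1 (0.17), WT replicate 2 (0.18) or WT replicate 3 (0.18). It did not pass in either genotype at day 14 (-0.10 ± 0.07 in KO and -0.07 ± 0.07 in HET), while KO against WT passed with the length and GC correction (-0.27) and HET against WT without HET replicate 2 (-0.17). Smarce1 (BAF57), which carries a DNA-bending HMG domain, had 89.1 to 91.0 CPM in KO and 121 to 125 CPM in WT at day 4 (log2 -0.45 ± 0.05; adjusted p = 1.13e-06). The day 14 levels were 116 to 127 CPM in KO, 127 to 139.8 CPM in HET and 91.7 to 99.4 CPM in WT, with log2 fold changes of 0.36 ± 0.05 in KO (adjusted p = 2.12e-05) and 0.50 ± 0.05 in HET (adjusted p = 6.55e-07). Its KO groups thus lay on opposite sides of WT at the 2 days, although the value of day 14 was 0.11 and did not pass with the length and GC correction.

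Among subunits that set the kind of complex, the ARID genes were lower in KO at day 4 or not past the threshold, and higher at day 14. Arid1a had 120.4 to 126 CPM in KO and 136 to 154 CPM in WT at day 4 (log2 -0.25 ± 0.12, not passed). That value did pass at -0.31 without WT replicate 3. It also passed at -0.27 with DESeq2, with no filter beyond 1 count and on the compared libraries alone. On day 14 the values were 122 to 127 CPM in KO, 109.6 to 154 CPM in HET and 79.1 to 107 CPM in WT, with log2 fold changes of 0.48 ± 0.12 in KO (adjusted p = 0.00248) and 0.63 ± 0.12 in HET (adjusted p = 0.000288). Arid1b had 48.6 to 55.1 CPM in KO and 69.6 to 72.5 CPM in WT at day 4 (log2 -0.45 ± 0.11; adjusted p = 0.00146). Levels at day 14 were 53.9 to 60.9 CPM in KO, 39.9 to 54.1 CPM in HET and 36.8 to 46.9 CPM in WT, and Arid1b was higher in KO than in WT (0.51 ± 0.11; adjusted p = 0.000759).

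Arid2, of PBAF, had 133, 129 and 133 CPM in KO and 206, 205 and 204 CPM in WT at day 4. In day 14 libraries it had 98.9, 100.5 and 98.9 CPM in KO, 83.6, 56.6 and 87.5 CPM in HET and 86.8, 77.9 and 66.9 CPM in WT. KO libraries lay below WT at day 4 and above it at day 14. KO against WT had a log2 fold change of -0.64 ± 0.12 at day 4 (adjusted p = 0.000153) and 0.37 ± 0.12 at day 14 (adjusted p = 0.0146). The call of day 14 was lost without WT replicate 3 (0.27) and with the length and GC correction (0.08).

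Phf10 (BAF45A), the PHD-finger subunit of PBAF, was far lower in KO at day 4. It had 120.2, 119.6 and 124 CPM in KO and 249.5, 255 and 255 CPM in WT at day 4, and 135, 133 and 132.5 CPM in KO, 113, 119 and 116 CPM in HET and 148, 149.9 and 148 CPM in WT at day 14. WT at day 4 was the high group, and no library of another group was above 149.9 CPM. The log2 fold change of KO against WT was -1.06 ± 0.04 at day 4 (adjusted p = 2.19e-12) and -0.16 ± 0.04 at day 14 (adjusted p = 0.00382). Pbrm1, whose bromodomains read acetylated histones, had 117 to 126 CPM in KO, 150.3 to 171.5 CPM in HET and 163.5 to 183 CPM in WT at day 14 (KO against WT -0.50 ± 0.06; adjusted p = 3.03e-06). At day 4 Pbrm1 did not pass (-0.05 ± 0.06), and with the length and GC correction it was 0.15 and passed.

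The bromodomain genes Brd7 (PBAF) and Brd9 (non-canonical BAF) were both higher in KO at day 4. Brd7 had 121.5 to 126 CPM in KO and 96.0 to 103 CPM in WT (log2 0.32 ± 0.05; adjusted p = 5.2e-05), and Brd9 had 51.7 to 53.4 CPM in KO and 44.0 to 46.4 CPM in WT (log2 0.21 ± 0.06; adjusted p = 0.00677). At day 14 Brd9 was lower, with 37.8 to 38.9 CPM in KO, 40.5 to 48.1 CPM in HET and 51.5 to 55.2 CPM in WT (KO against WT -0.47 ± 0.06; adjusted p = 1.01e-05). Brd7 did not pass in KO against WT at day 14 (-0.08 ± 0.05), and with the length and GC correction it was -0.23 and passed.

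Dpf1 (BAF45B), a PHD-finger gene typical of neurons, had the lowest log2 fold change of the 33 genes at day 14. It had 5.40, 6.08 and 6.49 CPM in KO and 3.38, 2.91 and 3.62 CPM in WT at day 4. The values of day 14 were 2.58, 2.42 and 2.81 CPM in KO, 2.83, 2.68 and 1.62 CPM in HET and 9.20, 9.19 and 8.93 CPM in WT. KO was above WT at day 4, and both KO and HET were below WT at day 14. KO against WT had a log2 fold change of 0.87 ± 0.15 at day 4 (adjusted p = 0.000113) and -1.80 ± 0.17 at day 14 (adjusted p = 1.38e-07), with an interaction of -2.67 ± 0.23 (adjusted p = 4.2e-08). HET against WT was at -1.94 ± 0.17 (adjusted p = 8.7e-08), while KO against HET did not pass (0.14 ± 0.19).

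The 6 neuron markers summed to 51.6 to 56.3 CPM in KO and 2.16 to 3.12 CPM in WT at day 4, and to 11.7 to 12.1 CPM in KO, 1.77 to 4.31 CPM in HET and 5.97 to 7.38 CPM in WT at day 14. Map2 and Tubb3 made up most of these sums. The defining markers Rbfox3 and Snap25 had no count in KO or WT at day 4. At day 4 these sums and Dpf1 were both higher in KO than in WT. At day 14 the sums were highest in KO and Dpf1 was highest in WT. Map2 and Tubb3 went different ways at day 14. Map2 had means of 10.7 CPM in KO, 0.12 CPM in HET and 0.435 CPM in WT. Tubb3 had 0.881, 2.18 and 5.65 CPM, with WT highest as for Dpf1. The part of such cells in the level of Dpf1 was not tested. Dpf2 (BAF45D), the widespread member of the family, was lower in KO at both days: 129 to 132 CPM in KO and 143 to 148 CPM in WT at day 4 (-0.16 ± 0.05; adjusted p = 0.00716), and 96.4 to 99.8 CPM in KO, 104.5 to 117 CPM in HET and 144 to 150.5 CPM in WT at day 14 (-0.59 ± 0.05; adjusted p = 3.61e-08). The day 4 call of Dpf2 was lost with the length and GC correction (-0.08).

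Actl6a, which partners actin in BAF, INO80 and TIP60, was higher in KO than in HET and WT at day 14. It had 104, 100.8 and 103 CPM in KO and 113, 108.6 and 108.5 CPM in WT at day 4 (log2 -0.10 ± 0.06, not passed). That value did pass with DESeq2 (-0.12) and on the compared libraries alone (-0.11). At day 14 it had 102.5, 106 and 111 CPM in KO, 72.0, 80.8 and 69.7 CPM in HET and 79.5, 82.4 and 79.0 CPM in WT. KO lay above both other genotypes, with a log2 fold change of 0.41 ± 0.06 against WT (adjusted p = 1.4e-05) and 0.52 ± 0.06 against HET (adjusted p = 1.04e-06). Of its exon bases, 11.6% lie in exons of Mrpl47 on the opposite strand, which moved by 0.47 in KO against WT at day 14. Its neuronal counterpart Actl6b had 6 counts and the neuronal Dpf3 had 7 counts over all 15 libraries, with no more than 2 in any library, and neither was tested.

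Ss18, an accessory subunit known from the SS18-SSX fusion of synovial sarcoma, changed sides between the days. It had 70.7, 74.4 and 68.8 CPM in KO and 102, 104 and 100.3 CPM in WT at day 4. The day 14 levels were 83.6, 89.2 and 84.4 CPM in KO, 83.2, 81.4 and 82.1 CPM in HET and 57.1, 47.6 and 51.6 CPM in WT. KO lay below WT at day 4, and KO and HET lay above WT at day 14. The log2 fold change of KO against WT was -0.52 ± 0.06 at day 4 (adjusted p = 1.32e-06) and 0.72 ± 0.06 at day 14 (adjusted p = 7.39e-08), and that of HET against WT was 0.66 ± 0.06 (adjusted p = 2.13e-07). Its paralog Ss18l1, at 4.82 to 8.36 CPM in every library, did not pass in KO against WT at either day (0.21 ± 0.14 and -0.34 ± 0.16), though the value of day 14 was -0.42 and passed with the length and GC correction.

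The BCL7 genes encode small accessory subunits. Bcl7c was lower in KO at both days, with 21.1, 22.2 and 22.1 CPM in KO and 33.2, 32.8 and 31.8 CPM in WT at day 4. On day 14 the values were 22.5, 23.4 and 24.4 CPM in KO, 29.4, 38.4 and 31.4 CPM in HET and 45.6, 46.3 and 56.6 CPM in WT. The 3 genotypes of day 14 did not overlap. KO against WT had a log2 fold change of -0.58 ± 0.10 (adjusted p = 5.26e-05) at day 4 and -1.08 ± 0.10 (adjusted p = 1.15e-07) at day 14. Bcl7b was lower at both days too (-0.16 ± 0.07 with adjusted p = 0.0464 and -0.74 ± 0.07 with adjusted p = 2.28e-07), but its day 4 call was lost when any 1 of the 6 libraries compared was left out (-0.19 to -0.14). Bcl7a did not pass at either day (0.13 ± 0.12 and 0.08 ± 0.12), and the value of day 4 was 0.29 and passed with that correction for length and GC content.

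In INO80, the ATPase and both RUVBL genes were lower in KO at day 4. Ino80 (ENSMUSG00000034154, chr2:119373042-119477687, minus strand) had 42.3, 41.1 and 43.0 CPM in KO and 87.3, 94.3 and 91.2 CPM in WT at day 4. Levels at day 14 were 52.4, 47.3 and 51.4 CPM in KO, 56.6, 41.7 and 59.4 CPM in HET and 52.0, 42.2 and 40.0 CPM in WT. WT at day 4 stood alone as the high group, and the groups of day 14 overlapped. The log2 fold change of KO against WT was -1.11 ± 0.11 at day 4 (adjusted p = 2.11e-07) and 0.17 ± 0.11 at day 14, which did not pass, with an interaction of 1.28 ± 0.16 (adjusted p = 3e-06). Without WT replicate 1 the value of day 14 was 0.30 and passed.

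Ruvbl2 had 74.2, 70.0 and 75.4 CPM in KO and 172, 163 and 170.4 CPM in WT at day 4. In day 14 libraries it had 94.2, 97.7 and 99.1 CPM in KO, 81.3, 102 and 85.0 CPM in HET and 116, 117 and 129 CPM in WT. KO lay below WT at both days, by -1.20 ± 0.07 (adjusted p = 5.03e-10) and -0.32 ± 0.07 (adjusted p = 0.00139). The day 14 value turned to 0.13, not past the threshold, with the length and GC correction. Of the exon bases of Ruvbl2, 10.7% lie in exons of Gys1 on the opposite strand, which moved by -0.77 at day 4 and 0.34 at day 14.

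Ruvbl1 had 50.8 to 55.1 CPM in KO and 85.3 to 88.1 CPM in WT at day 4 (log2 -0.72 ± 0.07; adjusted p = 7.74e-08). The values of day 14 were 66.4 to 68.8 CPM in KO, 41.7 to 50.7 CPM in HET and 80.7 to 81.8 CPM in WT, and HET was the lowest group (HET against WT -0.86 ± 0.07 with adjusted p = 2.69e-08; KO against WT -0.26 ± 0.07 with adjusted p = 0.0028). The actin-related genes Actr5 and Actr8 encode ARP5 and ARP8, modules with which INO80 grips the nucleosome and linker DNA. Actr8 was lower in KO at both days (-0.33 ± 0.09 with adjusted p = 0.00455 and -0.55 ± 0.10 with adjusted p = 0.000125), with 23.4 to 27.8 CPM in KO, 32.6 to 42.6 CPM in HET and 33.8 to 39.8 CPM in WT at day 14. The day 4 call of Actr8 was lost with the length and GC correction (-0.06). Actr5 had 8.87 to 10.8 CPM in KO, 11.5 to 15.2 CPM in HET and 12.7 to 15.7 CPM in WT at day 14 (-0.55 ± 0.12; adjusted p = 0.00112), a call that was lost in the same way (-0.06).

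In SRCAP and TIP60, Actr6 (ARP6, which helps SRCAP exchange H2A.Z) had 16.6 to 18.4 CPM in KO and 27.1 to 30.04 CPM in WT at day 4 (log2 -0.70 ± 0.10; adjusted p = 1.63e-05) and did not pass at day 14 (-0.13 ± 0.11; -0.25 and passed with the length and GC correction). Kat5, the acetyltransferase of TIP60, had 54.2, 58.5 and 52.4 CPM in KO and 44.7, 44.8 and 45.6 CPM in WT at day 4. At day 14 it had 32.5, 32.9 and 34.8 CPM in KO, 31.0, 31.1 and 34.4 CPM in HET and 51.4, 49.1 and 49.9 CPM in WT. KO was higher at day 4 (0.29 ± 0.06; adjusted p = 0.000462), and KO and HET were lower at day 14 (-0.58 ± 0.06 with adjusted p = 7.2e-07 and -0.64 ± 0.06 with adjusted p = 3.04e-07). Of its exon bases, 12.1% lie in exons of Rnaseh2c on the opposite strand, which moved by 0.99 and -0.66 in KO against WT at the 2 days.

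Ep400, the ATPase of TIP60, had 204 to 212 CPM in KO and 218 to 223 CPM in WT at day 4 (-0.09 ± 0.15, not passed). On the compared libraries alone this value was -0.09 and passed. The day 14 levels were 171 to 189 CPM in KO, 93.2 to 167 CPM in HET and 124.5 to 158 CPM in WT. Its call in KO against WT (0.39 ± 0.15; adjusted p = 0.0343) was lost without KO replicate 2 (0.40) or 3 (0.36) and without WT replicate 2 (0.34) or 3 (0.33). Srcap was counted at only 1.26 to 7.53 CPM, and 61.7% of its exon bases also lie in exons of Gm42715 on the same strand, so its level is not comparable with the others. It had 4.66 to 5.81 CPM in KO, 1.26 to 4.07 CPM in HET and 1.96 to 2.85 CPM in WT at day 14 (KO against WT 1.12 ± 0.27; adjusted p = 0.00171), while Gm42715 moved by -1.66 in the same comparison. The H2A.Z genes H2afz and H2afv went in different directions at day 4 (-0.36 ± 0.12 with adjusted p = 0.0173 and 1.05 ± 0.11 with adjusted p = 5.95e-07), and H2afv was lower in KO at day 14 (-0.37 ± 0.11; adjusted p = 0.0107).

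Levels per kb of exon put the genes in an order (mean CPM per kb). Smarcc2 (43.0), Smarca4 (33.5) and Ruvbl1 (27.6) led in KO at day 4, and Ruvbl2 (58.0), Phf10 (51.5) and Ruvbl1 (45.5) led in WT at day 4. At day 14 Smarca4 led in every genotype, with 40.9 in KO, 50.2 in HET and 45.8 in WT. Smarca2 ranked 27 of 35 in KO and 32 of 35 in WT at day 4, and 24, 26 and 29 of 35 in KO, HET and WT at day 14. Srcap, Dpf3 and Actl6b held the 3 lowest ranks in every group.

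Paralog balance was examined with log2 ratios of counts within a library, which do not depend on how libraries are scaled. Paired genes can differ in exon length, as Bcl7a (9490 bases) and Bcl7b (2404 bases) do. The ratios were not recomputed with the length and GC correction. Of 13 testable ratios, 7 differed between KO and WT over both days and 8 differed between day 14 and day 4 over both genotypes (exact permutation tests within strata, two-sided, 400 relabellings, adjusted over 13 ratios, smallest possible p = 0.005). Ratios of other gene pairs were not computed, so these counts have no background share beside them. Of all genes, 69.5% and 63.1% passed in KO against WT at days 4 and 14. Over time, 74.6% of all genes passed in WT and 60.9% in KO. Higher in KO were Bcl7a over Bcl7b (adjusted p = 0.013) and Ruvbl1 over Ruvbl2 (adjusted p = 0.0464). Lower in KO were Smarca4 over Smarca2, Smarcc1 over Smarcc2, Arid2 over Arid1a and Bcl7c over Bcl7b (each adjusted p = 0.013), and Brd9 over Brd7 (adjusted p = 0.0217). The calls of Arid2 over Arid1a and of Ruvbl1 over Ruvbl2 were lost without KO replicate 1 or 2 of day 14, and the second also without WT replicate 3 of day 14. Within single days the difference of Ruvbl1 over Ruvbl2 was 0.48 ± 0.06 at day 4 and 0.05 ± 0.05 at day 14 (log2, SE), where the libraries overlapped. That of Brd9 over Brd7 was -0.11 ± 0.05 at day 4, where they overlapped, and -0.38 ± 0.05 at day 14. For Arid2 over Arid1a the difference was -0.39 ± 0.06 at day 4 and -0.12 ± 0.09 at day 14. There the highest KO library was at -0.31 and the lowest WT library at -0.30. Over both genotypes, higher at day 14 were Smarcd3 over Smarcd1, Brd9 over Brd7, Bcl7a over Bcl7b, Bcl7c over Bcl7b and Actr5 over Actr8. Lower at day 14 were Smarca4 over Smarca2, Smarcd1 over Smarcd2 and Arid2 over Arid1a. Each had an adjusted p of 0.00813 in the exact permutation test. With 3 against 3 libraries no exact test reaches 0.05 (smallest p 0.1), so ratios with HET are given without a test.

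Smarcc1 over Smarcc2 was lower in KO at both days. The count ratio was 0.930, 0.868 and 0.878 in KO and 1.69, 1.68 and 1.77 in WT at day 4, and 1.03, 0.984 and 1.01 in KO, 0.652, 0.787 and 0.651 in HET and 1.09, 1.10 and 1.13 in WT at day 14. KO was below WT in all libraries of both days, and HET was lower still at day 14. Per kb, Smarcc1 made up 38.7% of the pair in KO and 54.8% in WT at day 4, and 41.7% in KO, 33.0% in HET and 44.0% in WT at day 14.

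Within the SMARCD family, Smarcd3 made up 4.36% per kb in KO and 2.06% in WT at day 4, and 3.53% in KO, 4.29% in HET and 7.38% in WT at day 14. Within the ARID family, Arid2 made up 45.2% in KO and 50.9% in WT at day 4, and 37.5% in KO, 30.6% in HET and 39.6% in WT at day 14. Bcl7a, the smallest share of the BCL7 family, made up 11.4% in KO, 6.44% in HET and 6.52% in WT at day 14. Phf10 over Dpf2 stood at -0.10 ± 0.04 in KO and 0.80 ± 0.04 in WT at day 4 on the log2 scale, and at 0.45 ± 0.04 in KO and 0.01 ± 0.03 in WT at day 14 (SD, n = 3). As the difference had opposite signs at the 2 days, it did not pass over both (adjusted p = 0.384, exact permutation test), and the same held for Smarcd3 over Smarcd1 and Ss18l1 over Ss18 (adjusted p = 0.975 and 0.691).

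**Figure D4:**
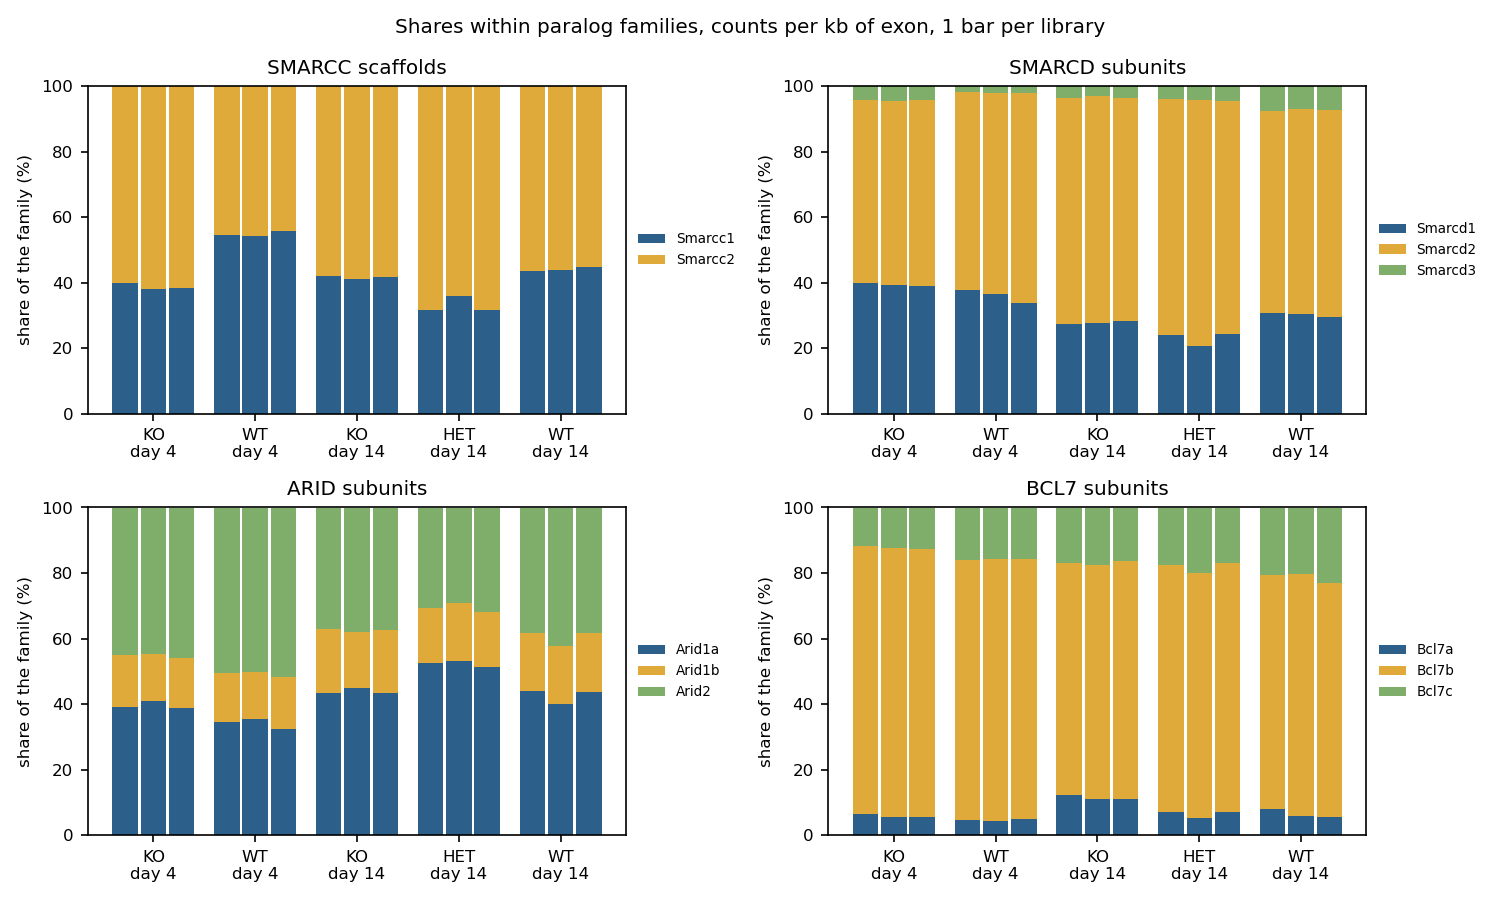
Share of each paralog in its family (percent of the summed counts per kb of exon) in each library, by group, for the SMARCC, SMARCD, ARID and BCL7 genes. The Smarcc1 share is 54.3% to 55.6% in WT at day 4 and 38.1% to 39.7% in KO, and the Smarcd3 share is largest in WT at day 14.

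More genes passed with a fold of at least 1.5 between day 14 and day 4 in WT than in KO cells. This order held for these genes and for all genes tested. In KO, 22 of 33 genes passed at day 14 against day 4 (11 higher and 11 lower, against 60.9% of all genes, 30.8% higher and 30.1% lower), and 4 with a fold of at least 1.5 (33.9% of all). In WT, 25 of 33 passed (12 higher and 13 lower, against 74.6% of all genes, 39.7% higher and 34.9% lower), and 16 did so with a fold of at least 1.5 (52.5% of all). These counts were not tested against each other. The genes past 1.5-fold in KO were Smarca2, Bcl7a, Dpf1 and Kat5.

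Smarca2 was higher at day 14 in both genotypes, by 0.90 ± 0.06 in KO (adjusted p = 7.03e-09) and by 2.10 ± 0.07 in WT (adjusted p = 7.75e-13), with an interaction of -1.20 ± 0.10 (adjusted p = 2.48e-08). Smarcd3 changed by -0.01 ± 0.11 in KO, which did not pass, and by 2.24 ± 0.11 in WT (adjusted p = 4.06e-11). Dpf1 was lower at day 14 in KO (-1.20 ± 0.16; adjusted p = 1.16e-05) and higher at day 14 in WT (1.47 ± 0.15; adjusted p = 3.42e-07). Ino80 was at 0.26 ± 0.11 in KO, which did not pass, and at -1.02 ± 0.11 in WT (adjusted p = 5.15e-07). Its value in KO did pass with DESeq2 (0.27), RLE scaling (0.27), no filter beyond 1 count (0.24), the compared libraries alone (0.26) and the length and GC correction (0.21). Arid2 was lower at day 14 in both (-0.41 ± 0.12 with adjusted p = 0.00723 in KO and -1.41 ± 0.12 with adjusted p = 2.75e-08 in WT).

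The comparisons over time in KO and WT share no library. They called 6 genes in the same direction (18.2%, against 30.4% of all genes), namely Smarca2, Smarca4, Smarcb1, Smarcd2 and Bcl7a higher and Arid2 lower at day 14. They called 9 in opposite directions (27.3%, against 18.1% of all genes). Higher at day 14 in KO and lower in WT were Smarce1, Phf10, Ss18, Ruvbl2 and Actr6. Lower at day 14 in KO and higher in WT were Pbrm1, Brd9, Dpf1 and Kat5. With the length and GC correction the WT change over time turned sign for Smarce1 (0.07), Smarcd2 (-0.01) and Kat5 (-0.13), none of them past the threshold, and the KO change of Pbrm1 (-0.05) no longer passed. Some of these opposite calls also rest on single libraries or on the filter. Actr6 in KO was lost without KO replicate 1 or 3 of day 4 or KO replicate 2 or 3 of day 14 (0.22 to 0.28), and in WT without WT replicate 3 of day 4 (-0.26). Kat5 in WT was lost in 5 of the fits that left out 1 WT library (0.13 to 0.15), with RLE scaling (0.14) and on the compared libraries alone (0.12). Pbrm1 in KO was lost without KO replicate 3 of day 4 (-0.12) and without KO replicate 1 (-0.13) or 2 (-0.17) of day 14. With no filter beyond 1 count, Actr6 (0.25), Pbrm1 (-0.18) and Phf10 (0.12) in KO and Kat5 (0.08) and Brd9 (0.15) in WT did not pass.

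**Figure D5:**
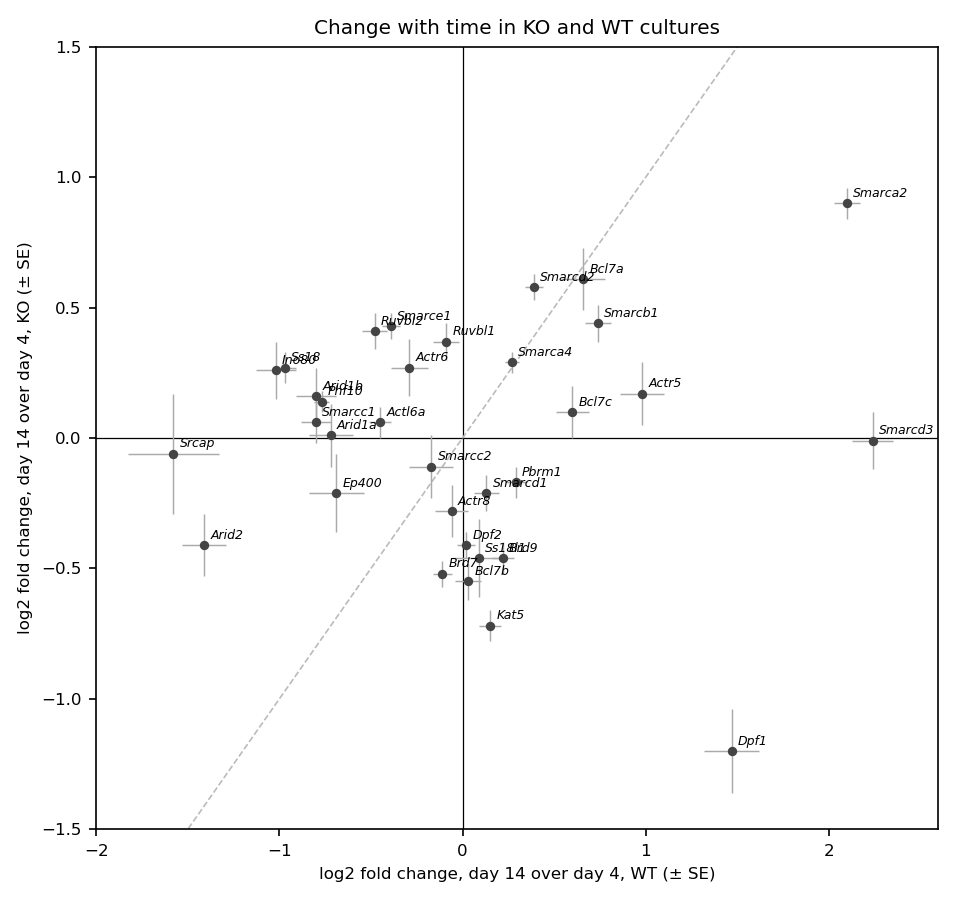
Log2 fold change of day 14 over day 4 in KO (vertical) and WT (horizontal) with SE for the 33 tested genes, where the dashed line marks equal change. Smarcd3 lies at -0.01 in KO and at 2.24 in WT, Ino80 lies at 0.26 in KO and at -1.02 in WT, and Dpf1 lies at -1.20 in KO and at 1.47 in WT.

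At day 14 the heterozygous cells can be set beside both other genotypes, in comparisons that share libraries. In HET against WT, 21 of 33 genes passed (7 higher and 14 lower, against 58.3% of all genes, 28.3% higher and 29.9% lower), and 27 without HET replicate 2. In KO against HET, 20 of 33 passed (9 higher and 11 lower, against 59.5% of all genes, 29.4% higher and 30.1% lower). With a fold of at least 1.5 as well, 7 and 3 passed in these comparisons, against 31.4% and 32.3% of all genes. Fitted on the compared libraries alone, these counts were 15 and 14. The actin-related genes were near WT in HET cells, with log2 fold changes of -0.12 ± 0.06 for Actl6a, -0.13 ± 0.12 for Actr5, 0.00 ± 0.11 for Actr6 and 0.00 ± 0.09 for Actr8 that did not pass. Actl6a passed at -0.18 without HET replicate 2 and at -0.16 with the length and GC correction, and Actr6 at -0.27 with that correction.

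HET did not lie between KO and WT for every gene. Smarca2, Smarcd3, Bcl7b, Bcl7c, Brd9 and Dpf2 passed in all 3 comparisons of day 14 with HET between the others, though not under every alternative. With the length and GC correction the calls of Bcl7b (-0.04) and Smarcd3 (-0.23) in HET against WT and of Smarcd3 (-0.26) and Smarca2 (0.18) in KO against HET were lost. Smarcd3 in KO against HET was also lost without KO replicate 2 (-0.28) or HET replicate 3 (-0.29). Brd9 lost HET against WT (-0.25) and KO against HET (-0.21) on the compared libraries alone, and KO against HET without HET replicate 2 (-0.13). With no filter beyond 1 count Smarcd3 (-0.30), Brd9 (-0.18) and Dpf2 (-0.17) did not pass in KO against HET. Smarcc1 passed in all 3 with HET lowest (HET against WT -0.46 ± 0.08 with adjusted p = 0.000207; KO against HET 0.78 ± 0.08 with adjusted p = 8.45e-07). Ruvbl1 and Phf10 also passed in all 3 with HET lowest, and Smarca4, Smarcd2 and Smarce1 with HET highest. The last 3 rest on the fit of all libraries: on the compared libraries alone Smarca4 in HET against WT (0.15) and Smarcd2 (-0.13) and Smarce1 (-0.15) in KO against HET did not pass. Smarcd2 in KO against HET was also lost without KO replicate 1 or 3 or HET replicate 1 or 2 (-0.13 to -0.10) and with the length and GC correction (-0.04). Smarce1 in KO against HET was lost without KO replicate 1 or 3 or HET replicate 2 or 3 (-0.14 to -0.11). With no filter beyond 1 count, Smarca4 in HET against WT (0.16) and KO against WT (-0.12), Phf10 in KO against WT (-0.11), and Smarcd2 (-0.10) and Smarce1 (-0.12) in KO against HET did not pass. HET replicate 2 was lower than the mean of the other HET libraries by -1.54 (log2) for Srcap, -0.82 for Ep400, -0.65 for Smarcc2 and -0.60 for Arid2, and higher by 0.46 for Actr6 and 0.37 for Actr5.

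Other subunits of the same complexes, 26 tested of 27 listed, had 4 higher and 15 lower in KO at day 4 while 7 did not pass (35.7% higher and 33.8% lower among all genes), with a median log2 fold change of -0.40 against 0.03 over all genes. Mbtd1, a histone-methyl reader of TIP60, was at -1.09 ± 0.07 (adjusted p = 1.51e-09) and the INO80 subunit gene Tfpt at -1.21 ± 0.15 (adjusted p = 2.5e-06), while Dmap1 of TIP60 and SRCAP was at 0.52 ± 0.07 (adjusted p = 3.17e-06) and Mcrs1 of INO80 at 0.40 ± 0.07 (adjusted p = 0.000174). At day 14, 9 were higher, 6 lower and 11 did not pass (30.9% higher and 32.2% lower among all genes), with a median of -0.01. There Mbtd1 was higher (0.82 ± 0.08; adjusted p = 1.63e-07), and Znhit1 of SRCAP (-0.93 ± 0.11; adjusted p = 2.18e-06) and Mcrs1 (-0.63 ± 0.08; adjusted p = 2.7e-06) were lower.

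The 34 genes of other remodeller families (ISWI, CHD, NuRD and others such as Hells, Atrx and Smarcad1) had 5 higher and 20 lower in KO at day 4, against 35.7% and 33.8% of all genes, and 9 higher and 11 lower at day 14, against 30.9% and 32.2%. Chd7, a CHD-family ATPase, was at 14.5, 13.8 and 12.6 CPM in KO and 77.7, 79.1 and 80.1 CPM in WT at day 4. At day 14 it was at 32.8, 33.8 and 32.7 CPM in KO, 9.72, 10.9 and 10.6 CPM in HET and 12.4, 11.4 and 12.2 CPM in WT. Its log2 fold change of KO against WT was -2.54 ± 0.07 at day 4 (adjusted p = 2.45e-14) and 1.46 ± 0.07 at day 14 (adjusted p = 6.9e-11). Mta3, a NuRD subunit gene, was higher in KO at day 4 (1.82 ± 0.09; adjusted p = 7.35e-11).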

How the data were processed

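Each library has 1 deposited table of raw counts per Ensembl gene. The submitters' processing notes name TopHat2 2.1.0, GRCm38.p4, HTSeq and DESeq2 without giving the step of each, and the counts were used as the authors deposited them. The HTSeq version, the annotation release, the counting mode and the strand setting were not given in the sources used here. Per the labels' protocols, the TruSeq RNA kit v2 was used, which does not mark strand. GENCODE M21 (GRCm38) matched 46005 of the 46603 IDs, and the other 598 held 0.0762% of counts.

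The members, the lists of other genes and the rule by which genes are named (all members, Actb and Actg1, and up to 2 list genes in each direction with the smallest adjusted p) were chosen with earlier results of these data known. edgeR 4.0.16 (R 4.3.3) fitted all 15 libraries by group after filterByExpr and TMM scaling (15296 genes, common biological coefficient of variation 8.33%). Quasi-likelihood F tests covered 7 comparisons, each adjusted by Benjamini-Hochberg over all genes, threshold 0.05. The SE is the size of the log2 fold change divided by the square root of F. Ratios needed at least 10 counts of both genes in each library. The pipeline was tested on simulated data. Replicates differed by more than counting error: chi-square over degrees of freedom, for pairs within a group, was 2.15 to 3.14 at day 4, 2.27 to 2.62 in KO, 3 to 59.6 in HET and 5.57 to 21.8 in WT at day 14. Alternatives were DESeq2 1.42.0, RLE scaling, other filters, only the compared groups, the replicate number as a block, a spline correction for length and GC content (5 degrees of freedom), and each replicate left out. Leaving out Srcap and Smarcd3 was chosen after seeing the data.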

Additional observations from a re-analysis of the deposited data

Results flagged for a closer look

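The effect of KO against WT differed between the days for 28 of 33 remodeller genes in edgeR's test of the interaction, which was tested for each gene (value of day 14 minus value of day 4, log2; 64.7% of all genes passed). The log2 fold change of KO against WT was higher at day 14 than at day 4 for 14 genes: Srcap (1.52), Ino80 (1.28), Ss18 (1.23), Arid2 (1.00), Arid1b (0.96), Phf10 (0.90), Ruvbl2 (0.89), Smarcc1 (0.87), Smarce1 (0.81), Arid1a (0.73), Actr6 (0.56), Actl6a (0.51), Ruvbl1 (0.46) and Smarcd2 (0.19). It was lower at day 14 for the other 14: Dpf1 (-2.67), Smarcd3 (-2.25), Smarca2 (-1.20), Kat5 (-0.87), Actr5 (-0.81), Brd9 (-0.68), Bcl7b (-0.58), Ss18l1 (-0.55), Bcl7c (-0.50), Pbrm1 (-0.46), Dpf2 (-0.43), Brd7 (-0.40), Smarcd1 (-0.34) and Smarcb1 (-0.29). Smarca2 was above WT in KO cells at both days, with the smaller fold at day 14. With the length and GC correction Smarcd1 (0.07), Bcl7b (-0.08) and Actr5 (-0.30) no longer passed. Smarcb1 was at -0.25 and no longer passed without KO replicate 2 of day 14, and Smarcd2 at 0.18 without WT replicate 2 of day 4. With no filter beyond 1 count Smarcb1 (-0.23), Smarcd1 (-0.28), Smarcd2 (0.25) and Ss18l1 (-0.49) did not pass. The call of Ss18l1 was lost in 8 of the fits that left out 1 library (-0.56 to -0.44).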

How the results depend on the processing

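Over 3432 values of single genes under the alternatives, 128 lost a call and 98 gained one without a change of sign, and 27 changed sign with a call before or after. The other 3179 kept their side of the threshold, and those with no call in either fit could have either sign. The 27 changes came with the length and GC correction, alone or with the replicate block, and no called value changed sign among the 2970 values under the other alternatives. With the correction the values were 0.15 for Pbrm1 in KO against WT at day 4, and 0.02 for Smarca4, 0.36 for Smarcd1 and 0.13 for Ruvbl2 at day 14. They were 0.06 for Smarcd1 and -0.27 for Actr6 in HET against WT. For day 14 against day 4 in WT they were -0.25 for Smarcd1, -0.01 for Smarcd2, 0.07 for Smarce1, -0.48 for Bcl7b, 0.42 for Actr8 and -0.13 for Kat5, and the interaction of Smarcd1 was 0.07. The cause was not tested.

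The labels do not say whether replicate numbers pair libraries, and weak correlations between libraries cannot exclude it. Over 30 pairs of same-numbered libraries from different groups, the correlation of residuals lay between -0.15 and 0.18 (median -0.01, with 1 over 0.1). With the replicate block the counts of genes called were 24 and 26 in KO against WT at days 4 and 14, 21 in HET against WT, 22 in KO against HET, 25 and 22 over time in WT and KO, and 28 for the interaction. The block with the correction also gave 0.27 for Actr5 in HET against WT.

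Leaving out 1 library gave 22 to 23 calls in KO against WT at day 4, 24 to 27 at day 14, 20 to 27 in HET against WT, 18 to 22 in KO against HET, 23 to 26 and 18 to 22 over time in WT and KO, 26 to 28 for the interaction, and 5 to 8 ratios of KO against WT and 8 in each fit over time. Without Srcap and Smarcd3 the counts were 23, 24, 20, 18, 23, 22 and 26. These counts of genes called and of ratios stayed within 1.5 times their values in the report. Low counts of Srcap, Dpf1, Smarcd3, Ss18l1 and Actr5 limit what can be seen for these genes.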
